A study of Mus musculus with 24 samples.

Results

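The collagen genes of primary mouse neural stem cells (NSCs) were examined by poly(A) RNA sequencing. Members were chosen by name alone, as every gene whose symbol reads Col, a number, the letter a and a number, and 32 of the 14922 genes in the table were found. NSCs were grown from cortices of female E14.5 embryos, as an adherent monolayer with EGF, FGF and laminin. Cells of the FVB/NJ strain were wild type (FVB_WT) or homozygous for MommeD43, a missense allele of Smchd1 made by chemical mutagenesis (FVB_MD43). Cells of the C57BL/6J strain had GFP fused to Smchd1 in every line, with the MommeD43 change introduced by CRISPR-Cas9 or without it (B6GFP_MD43 and B6GFP_WT), so that strain and GFP fusion cannot be told apart. The labels give these controls as Smchd1+/+, and the study's methods describe them as homozygous for the fusion. SMCHD1 is a chromatin protein of the SMC family that takes part in gene silencing, including on the inactive X chromosome. The usable data were 22 libraries of 17 independent lines, with 5 lines in FVB_WT and 4 lines in each of FVB_MD43, B6GFP_WT and B6GFP_MD43. Of 24 labelled columns, 2 equalled the mean of their group mates and were left out, and values are given below in the order of the lines (1 to 5 in FVB_WT, 1, 2, 4 and 5 in FVB_MD43, 1 to 4 in the B6GFP groups).

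Collagens are matrix proteins built from alpha chains that wind around one another, and each chain has its own gene. Fibrillar chains (types I, II, III, V and XI, with XXVII) form the fibrils of connective tissue. Type IV chains form the sheet of basement membranes, on which radial glia of the embryonic cortex anchor their end feet. FACIT chains (types IX, XII, XVI, XIX, XX and XXII) sit on the surface of fibrils, and multiplexins (types XV and XVIII) carry heparan or chondroitin sulfate chains in or near basement membranes. The C-terminal piece of type XVIII collagen is endostatin, an inhibitor of blood vessel growth.

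The values are log2 CPM (a gene's reads relative to all reads of its library, on a log2 scale), which the authors corrected for batch. Their methods name strain among the corrections, but the strains still differ in the table, and how far a strain correction entered these values was not tested, so strain differences are differences in the deposited values. Library depth relative to the deepest library, read from the step of the lowest values, was 0.526 to 0.893 in batch 1, which held both strains, 0.137 to 0.19 in batch 2, which held FVB alone, and 0.435 to 1 in batch 3, which held B6GFP alone. The fit weights libraries by their noise over all genes, and the lowest weights, 0.101 and 0.158 against a highest of 4.9, fell on B6GFP_WT line 4 and B6GFP_MD43 line 2. Calls between strains depended on these weights, and values without weights or without these lines are given beside the genes they move most. All 8 NSC markers were in the table, led by Vim at 11.12 and Nes at 10.16 log2 CPM (means of the 4 group means). Smchd1 RNA did not pass the test between genotypes, with log2 changes of 0.05 (SE 0.06, limma adjusted p = 0.942) in FVB and -0.01 (SE 0.08, adjusted p = 1) in B6GFP. MommeD43 is a point change, so the RNA level does not check the genotype labels.

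Of the 32 collagen genes, 21 had at least 1 group mean of 1 CPM or more. By structure these were 6 of 8 FACIT chains, 6 of 10 fibrillar chains, 4 of 4 type IV chains, 1 of 3 beaded-filament chains (Col28a1), 1 of 2 multiplexins (Col18a1), 1 of 2 transmembrane collagens (Col23a1), the anchoring-fibril chain Col7a1 and Col26a1. The classic connective tissue chains were near the bottom. Col1a1, Col1a2, Col2a1, Col3a1, Col6a1 and Col6a3 had every group mean below 1 CPM, as did Col8a1, Col9a1, Col15a1, Col20a1 and Col25a1. These 11 genes are given by counts and without a fold.

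Levels can be compared between genes only per length, here per kilobase of annotated exon. On that scale Col9a3, a chain of the FACIT type IX, was highest at a mean of 4.27 log2 CPM per kilobase, followed by Col18a1 at 3.75, Col5a2 at 2.97, Col16a1 at 2.92, Col4a5 at 2.75, Col11a1 at 2.35, Col4a1 at 1.96 and Col5a1 at 1.86. From Col5a2 to Col5a1, each gap between neighbours in this order was smaller than the SD over lines of either gene (0.28 to 0.71 log2). Neighbours in that stretch are therefore not ranked against each other. This does not extend to its ends, Col5a2 and Col5a1, which lay further apart than either SD. The order also differed by strain. In B6GFP_WT Col18a1 (4.51) was above Col9a3 (4.27), whereas in FVB_WT Col18a1 (2.81) was below Col9a3 (3.99), Col5a2 (3.29) and Col16a1 (2.88). The other type IX chains were far lower, since Col9a2 was at -0.62 log2 CPM per kilobase and Col9a1 was below 1 CPM in every group.

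**Figure D1:**
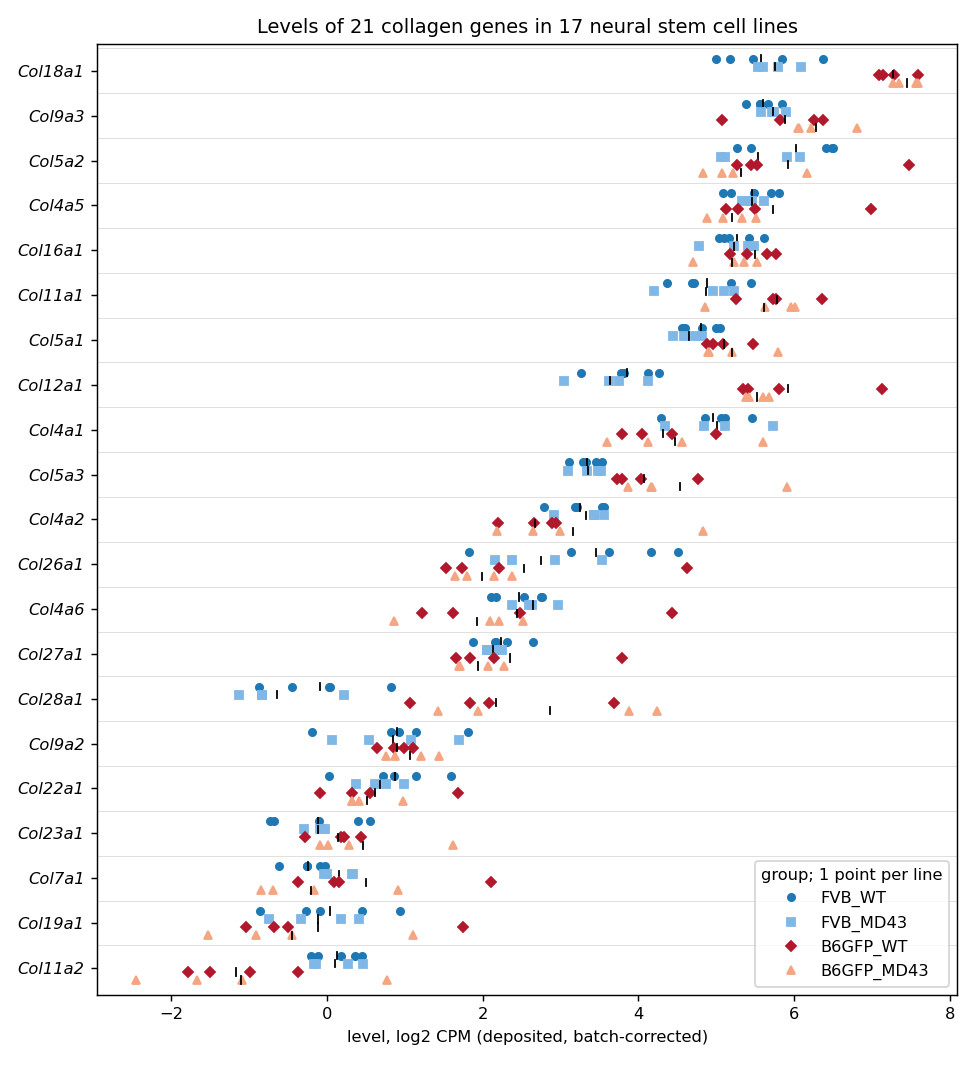
Level of the 21 collagen genes with a group mean of 1 CPM or more, in log2 CPM on the horizontal axis, with 1 point per line (mean of its libraries) and a short black bar at each group mean. For Col18a1 and Col12a1 every B6GFP line lies to the right of every FVB line, and B6GFP_WT line 4 stands far to the right for Col12a1 (7.13), Col5a2 (7.48) and Col4a5 (6.99).

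The B6GFP lines devoted more reads to collagens than the FVB lines. The CPM of all 32 genes summed to a median of 418.25 in FVB_WT (379.45 to 450.4), 407.3 in FVB_MD43 (347.08 to 409.93), 574.56 in B6GFP_WT (518.2 to 930.51) and 604.33 in B6GFP_MD43 (563.39 to 656.02). No line of B6GFP lay in the FVB range, and the top of 930.51 was B6GFP_WT line 4. Multiplexins, which here means Col18a1 almost alone, had median sums of 44.56, 52.02, 148.36 and 175.61 CPM in the same order of groups. FACIT sums had medians of 114.06, 113.78, 176.58 and 163.62 CPM. The type IV chains went the other way in their medians, at 97.85, 94.44, 72.4 and 74.9 CPM, but the ranges overlapped (75.53 to 108.66 in FVB_WT and 55.57 to 187.93 in B6GFP_WT). Fibrillar chains gave 157.96, 121.62, 151.32 and 166.35 CPM. Col18a1 made up a median of 11.73% of all collagen CPM in FVB_WT, 13.48% in FVB_MD43, 28.05% in B6GFP_WT and 28.01% in B6GFP_MD43. In bulk RNA, fewer cells of a type and less RNA per cell cannot be told apart, and this holds for every level below.

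Col18a1, Col12a1 and Col28a1 separated the strains most clearly. Col18a1 (chr10:77052178-77166530, minus strand, GRCm38.p6) was listed at 6.37, 5.0, 5.18, 5.48 and 5.84 log2 CPM in the FVB_WT lines and at 6.09, 5.79, 5.60 and 5.54 in the FVB_MD43 lines. It was at 7.59, 7.13, 7.29 and 7.09 in B6GFP_WT and at 7.56, 7.59, 7.34 and 7.27 in B6GFP_MD43. All 8 B6GFP lines were above all 9 FVB lines. The fitted difference between wild types was 2.12 (SE 0.22, limma adjusted p = 1.59e-07, 4.34-fold), and between MommeD43 lines 1.88 (SE 0.26, adjusted p = 9.56e-06, 3.69-fold).

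Col12a1, a FACIT chain that binds type I fibrils (chr9:79598987-79721141, minus strand), showed the same separation. The FVB_WT lines were at 3.78, 4.13, 3.81, 3.26 and 4.26 log2 CPM, and the FVB_MD43 lines at 3.75, 4.12, 3.62 and 3.05. B6GFP_WT gave 5.80, 5.41, 5.34 and 7.13, and B6GFP_MD43 gave 5.68, 5.60, 5.39 and 5.42. The lowest B6GFP line was therefore above the highest FVB line in both genotypes. The difference was 1.88 (SE 0.19, adjusted p = 1.25e-07, 3.67-fold) in wild type and 1.69 (SE 0.22, adjusted p = 7.16e-06, 3.22-fold) in MommeD43.

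Col28a1 encodes a chain of the beaded-filament group with von Willebrand factor A domains (chr6:7997100-8193709, minus strand). It was barely detected in FVB, at -0.45, 0.03, 0.02, 0.82 and -0.87 log2 CPM in FVB_WT and at -0.83, -0.84, -1.12 and 0.22 in FVB_MD43. In B6GFP_WT it was at 1.84, 3.68, 2.08 and 1.06, and in B6GFP_MD43 at 1.94, 1.43, 3.88 and 4.24. The strains again did not overlap, but the B6GFP lines were spread from 1.06 to 4.24. The difference was 2.08 (SE 0.45, adjusted p = 0.000928, 4.24-fold) in wild type and 3.59 (SE 0.53, adjusted p = 2.46e-05, 12.1-fold) in MommeD43.

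Between the wild types, 15 of the 32 collagen genes passed an adjusted p of 0.05, 7 higher and 8 lower in B6GFP. Over all genes 41.1% passed (17.9% higher and 23.2% lower), so the share of collagen genes was close to the background. The sizes were larger, with a median absolute log2 difference of 0.61 for collagens against 0.19 for all genes. They were also larger for MommeD43 in FVB (0.21 against 0.06), where no collagen gene passed, and collagen genes varied more within groups. Between the MommeD43 lines 10 of 32 passed, 7 higher and 3 lower, where 34.4% of all genes passed (14.7% higher and 19.6% lower), and the medians were 0.52 and 0.21. Of the genes above 1 CPM, 6 were higher and 5 lower in the wild type comparison, and 7 were higher and 1 lower in MommeD43. Both counts depended on the quality weights. Without weights 3 members passed in wild type (Col18a1 at 1.76, Col12a1 at 2.01 and Col1a1, which is below 1 CPM, against 8.44% of all genes) and 3 in MommeD43 (Col18a1 at 1.69, Col12a1 at 1.91 and Col28a1 at 3.60, against 6.82%). Without the 2 lines of lowest weight, 17 and 12 members passed with weights (41.5% and 35.0% of all genes) and 6 and 6 passed without (16.2% and 12.2%). Without B6GFP_MD43 line 3 the MommeD43 count was 19 (54.8% of all genes). Col12a1 and Col18a1 passed in both comparisons in each of 14 other settings and in each of 17 fits that left out 1 line. Col28a1 did so between MommeD43 lines, and between wild types it missed the threshold without weights (adjusted p = 0.0512).

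**Figure D2:**
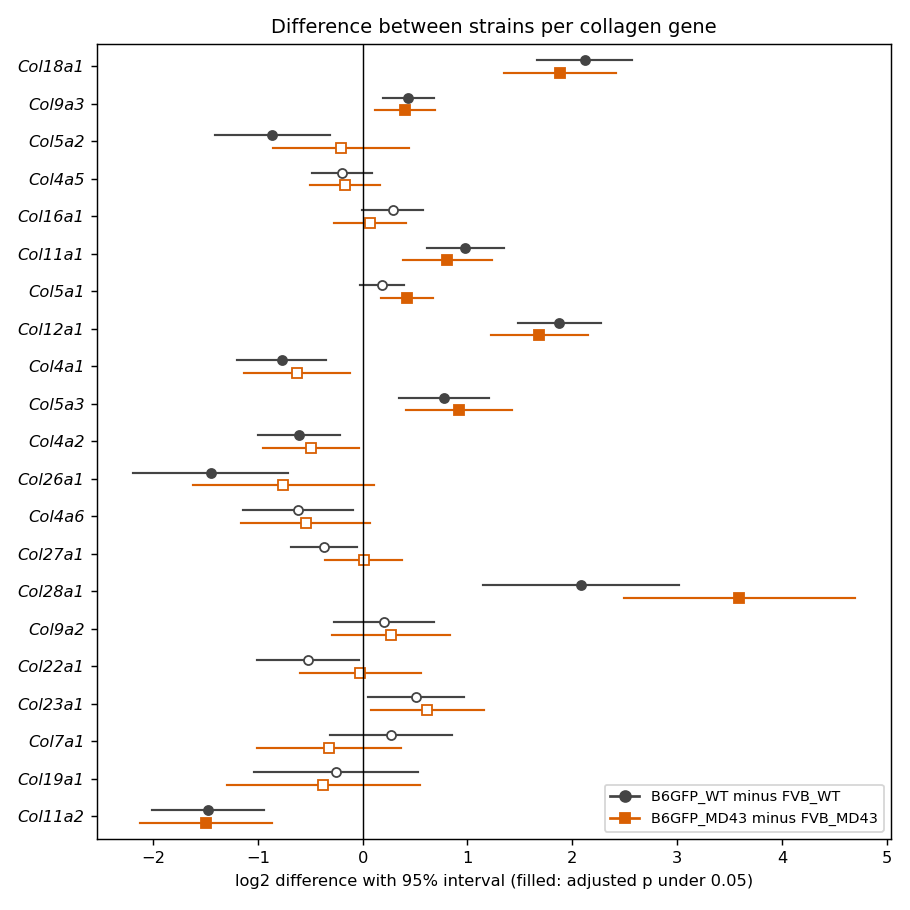
Fitted B6GFP minus FVB difference of each of the 21 genes in wild type (circles) and in MommeD43 (squares), on the log2 scale, with 95% intervals of the fit. Filled marks passed an adjusted p of 0.05, and the intervals of Col18a1, Col12a1 and Col28a1 lie above 1 in both genotypes.

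Among the fibrillar chains the direction was mixed. Col11a1, a minor fibrillar chain, was at 5.18, 4.69, 4.72, 4.37 and 5.44 log2 CPM in FVB_WT and at 5.77, 5.26, 5.73 and 6.35 in B6GFP_WT, and the groups overlapped. Its difference was 0.98 (SE 0.18, adjusted p = 0.000149, 1.97-fold), and 0.81 (SE 0.21, adjusted p = 0.0045) in MommeD43, where the lines were at 5.10, 4.95, 5.23 and 4.20 against 5.62, 6.02, 5.95 and 4.85. Its partner chain Col11a2 went the opposite way and is hardly detected, at -0.11, 0.36, -0.21, 0.18 and 0.45 log2 CPM in FVB_WT against -0.99, -1.5, -1.79 and -0.38 in B6GFP_WT, with no overlap. The Col11a2 difference was -1.47 (SE 0.26, adjusted p = 0.000115) in wild type and -1.49 (SE 0.30, adjusted p = 0.000688) in MommeD43, where the lines were at 0.46, -0.17, -0.14 and 0.27 against -1.09, 0.77, -2.45 and -1.67 and overlapped. Without weights neither Col11a1 (0.88 and 0.80, adjusted p = 0.0809 and 0.191) nor Col11a2 (-1.36 and -1.27, adjusted p = 0.156 and 0.289) passed.

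Type V chains regulate fibril diameter, and they also split. Col5a3 was at 3.11, 3.32, 3.29, 3.53 and 3.45 log2 CPM in FVB_WT against 4.03, 4.77, 3.72 and 3.79 in B6GFP_WT, and at 3.48, 3.52, 3.09 and 3.34 in FVB_MD43 against 4.18, 3.87, 4.16 and 5.91 in B6GFP_MD43. No lines overlapped in either genotype, and the differences were 0.78 (SE 0.21, adjusted p = 0.00482, 1.71-fold) and 0.92 (SE 0.24, adjusted p = 0.00562, 1.89-fold). Without weights they were 0.80 and 1.14 (adjusted p = 0.28 and 0.163). Col5a1 passed between MommeD43 lines at 0.42 (SE 0.12, adjusted p = 0.0082, 1.34-fold), with 4.58, 4.73, 4.45 and 4.82 against 4.91, 5.79, 5.20 and 4.90. Without weights this difference was 0.58 (limma adjusted p = 0.157). In wild type, Col5a1 was at 4.60, 4.81, 4.99, 5.05 and 4.56 against 5.09, 4.88, 4.96 and 5.47, and its difference of 0.18 (SE 0.10) had an adjusted p of 0.151. Col5a2 had a fitted difference of -0.86 (SE 0.26, adjusted p = 0.0128) between wild types, but its lines were at 5.27, 6.41, 6.50, 6.49 and 5.44 in FVB_WT and at 5.44, 5.26, 5.52 and 7.48 in B6GFP_WT. The highest and the lowest wild type line were both B6GFP, and the fit gives the line at 7.48 little weight. Without weights the Col5a2 difference was -0.22 (adjusted p = 0.853), and it also missed the threshold without FVB_WT line 2, B6GFP_WT line 1 or B6GFP_WT line 2.

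Both ubiquitous type IV chains were lower in B6GFP_WT. Col4a1 was at 4.85, 5.11, 5.06, 4.29 and 5.45 log2 CPM in FVB_WT and at 4.05, 3.79, 4.43 and 5.0 in B6GFP_WT, a difference of -0.77 (SE 0.21, adjusted p = 0.00494). Col4a2 was at 3.21, 3.53, 3.19, 2.79 and 3.56 against 2.66, 2.20, 2.94 and 2.89, a difference of -0.61 (SE 0.19, adjusted p = 0.013). The groups overlapped for both genes. Neither call held without B6GFP_WT line 2 (adjusted p = 0.0942 for Col4a1 and 0.156 for Col4a2), nor without weights, and that of Col4a2 was also lost without FVB_WT line 2 (adjusted p = 0.108). In MommeD43 the Col4a1 lines were at 5.11, 4.85, 5.73 and 4.34 against 4.12, 5.60, 4.55 and 3.60, and neither chain passed, at -0.62 (adjusted p = 0.0508) and -0.49 (adjusted p = 0.0917). Col4a5 was at 5.08, 5.80, 5.70, 5.49 and 5.19 in FVB_WT and at 5.28, 5.12, 5.50 and 6.99 in B6GFP_WT, and Col4a6 at 2.17, 2.76, 2.75, 2.10 and 2.53 against 1.61, 1.22, 2.48 and 4.43, so that line 4 was above all FVB lines. This X-linked pair did not pass in either genotype, with Col4a5 at -0.20 (95% interval -0.48 to 0.09) and Col4a6 at -0.62 (-1.14 to -0.09, adjusted p = 0.0571) in wild type. Without weights these were 0.19 (adjusted p = 0.798) and -0.10 (adjusted p = 0.942), and without B6GFP_WT line 4 the weighted values were -0.21 and -0.64, of which Col4a6 passed (adjusted p = 0.0297).

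Of the remaining genes, Col9a3 was slightly higher in B6GFP_WT, at 6.25, 6.37, 5.81 and 5.08 log2 CPM against 5.57, 5.85, 5.55, 5.38 and 5.66 in FVB_WT. The Col9a3 difference was 0.43 (SE 0.12, adjusted p = 0.0054) although line 4 was the lowest of all wild type lines. This call was lost without B6GFP_WT line 2 and without weights (0.29, limma adjusted p = 0.544). Between MommeD43 lines, at 5.90, 5.72, 5.74 and 5.57 against 6.06, 6.05, 6.21 and 6.80, the lines did not overlap and the difference was 0.40 (SE 0.14, adjusted p = 0.027), a call lost without FVB_WT line 3 or FVB_MD43 line 2 and without weights. Col26a1, a small secreted collagen, was at 3.14, 4.51, 3.62, 1.82 and 4.16 in FVB_WT and at 2.21, 1.74, 1.53 and 4.63 in B6GFP_WT. Its fitted difference was -1.45 (SE 0.35, adjusted p = 0.0026) with the ranges overlapping, and -1.10 (adjusted p = 0.418) without weights. Col16a1, a FACIT at 5.61, 5.42, 5.04, 5.10 and 5.16 in FVB_WT and 5.65, 5.17, 5.39 and 5.77 in B6GFP_WT, did not pass, with an interval of -0.00 to 0.58. Below 1 CPM, Col1a1, Col2a1 and Col6a3 passed as lower and Col15a1 as higher in B6GFP_WT, and Col1a1 and Col6a3 passed as lower in B6GFP_MD43. Reads of 0 could be told only in batches where libraries tied at the lowest value of a gene. Among the libraries of such batches, 5 of 16 were at 0 for Col15a1 and 5 of 16 for Col3a1. The counts were 4 of 12 for Col8a1, 3 of 6 for Col9a1 and 3 of 6 for Col6a1.

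Counting lines rather than fitting them, 5 members did not overlap between the wild types (Col18a1, Col12a1, Col28a1 and Col5a3 higher and Col11a2 lower in B6GFP), where 15.9% of all genes did not overlap. Between MommeD43 lines 6 did not overlap, all higher in B6GFP (Col18a1, Col12a1, Col28a1, Col5a3, Col5a1 and Col9a3), against 21.3% of all genes in either direction and 9.85% in that direction. Batch 1 holds both strains. Its usable libraries, also part of the main fit, are of lines 1 to 3 in each wild type group. For MommeD43 they are of FVB_MD43 lines 1 and 2 and B6GFP_MD43 lines 1 and 3 alone. Within batch 1 the differences were 2.11 and 1.67 for Col18a1, 1.92 and 1.63 for Col12a1, and 1.91 and 4.18 for Col28a1 (wild type first). They were 1.0 and 0.78 for Col11a1 and 0.79 and 0.93 for Col5a3, and all of these passed. Col5a2 between wild types (-0.91, adjusted p = 0.0846) and Col9a3 between MommeD43 lines (0.33, adjusted p = 0.149) no longer passed there, nor did Col2a1, Col6a3 and Col1a1, which are below 1 CPM, in one comparison each.

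Some markers of cells that make much collagen passed between strains, and their part in these results was not tested. Over all genes, 17.9% were higher and 23.2% lower in B6GFP_WT, and 14.7% and 19.6% in B6GFP_MD43. Of 8 fibroblast or meningeal markers 5 were in the table (Lum, Foxd1 and Aldh1a2 were not), with summed CPM of 11.46 to 44.98 in FVB_WT, 10.51 to 41.24 in FVB_MD43, 31.25 to 86.65 in B6GFP_WT and 15.72 to 45.05 in B6GFP_MD43. The highest of the 5 in every group was Pdgfra (group means of 3.80 to 4.59 log2 CPM), which also counts among the oligodendrocyte lineage markers. In B6GFP_WT 2 of the 5 were higher (Foxc1 by 2.62 and Tbx18 by 3.41 log2) and 1 was lower (Ogn, -1.06), with a median of 0.11, and the fibroblast proteoglycan Dcn was below 1 CPM in every group. Of 9 pericyte or smooth muscle markers 5 were in the table, at 3.39 to 16.16, 4.15 to 15.89, 1.02 to 32.64 and 0.96 to 5.07 CPM in the same order, and Acta2, Tagln and Pdgfrb were lower in B6GFP_WT, where 0 of the 5 passed without weights. Endothelial markers (8 of 9) summed to between 2.51 and 18.32 CPM, with Pecam1 and Cdh5 below 1 CPM in every group, and microglial markers (2 of 8) to between 2.49 and 11.17 CPM. All 5 astrocyte markers were lower in B6GFP in both genotypes, with median differences of -1.70 and -2.14. NSC markers summed to between 5279.79 and 7804.48 CPM, with 2 higher and 5 lower in B6GFP_WT. Neuronal markers summed to between 766.23 and 1106.92 CPM (0 of 6 higher and 2 lower in B6GFP_WT). Nearly all of this was Map2, at group means of 9.68 to 9.89 log2 CPM, and every other neuronal marker was at 3.82 or lower. Oligodendrocyte lineage markers summed to between 48.28 and 111.66 CPM (1 of 6 higher and 2 lower).

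The proteins that make, bind and remove collagen were compared in the same fits, in which 17.9% of all genes were higher and 23.2% lower in B6GFP_WT, and 14.7% and 19.6% in B6GFP_MD43. Of 34 genes for collagen folding, modification, secretion and cross-linking, 11 were higher and 4 lower in B6GFP_WT, and 8 and 3 in B6GFP_MD43. The cross-linking enzyme Loxl3 fell by 1.42 (SE 0.15, adjusted p = 2.11e-07), the prolyl hydroxylase subunit P4ha3 fell by 2.55 (SE 0.34) and the collagen-binding protein Sparc fell by 0.83 (SE 0.12) from FVB_WT to B6GFP_WT. P4hb, the partner subunit of prolyl hydroxylases, was higher by 0.24 (SE 0.04). The median difference of the list was 0.08, and -0.02 over all genes. Without weights 2 were higher and 2 lower in B6GFP_WT, Loxl3 and P4ha3 among the lower and P4hb among the higher, while Sparc was at -0.57 (adjusted p = 0.225).

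Beside the 17.9% of all genes that were higher and 23.2% lower in B6GFP_WT, 3 of 10 collagen receptors were higher and 1 lower, with a median of -0.05. The receptor kinase Ddr2 was higher by 2.04 (SE 0.38, adjusted p = 0.0002), the collagen uptake receptor Mrc2 by 1.21 (SE 0.18) and Itgb1 by 0.18 (SE 0.04), whereas integrin Itga2 was lower (-1.41, SE 0.18). Among basement membrane partners, 6 of 16 were lower and 1 higher, with a median of -0.21. The lower ones included the laminin chain Lama1 (-1.07, SE 0.21), perlecan Hspg2 (-0.46), Lamc1 (-0.31) and dystroglycan Dag1 (-0.28). Of 13 genes for collagen breakdown, 2 were higher and 4 lower, with a median of -0.01. The gelatinase Mmp2 was higher by 1.24 (SE 0.22), and by 2.19 (SE 0.26) between MommeD43 lines, while its inhibitors Timp3 and Timp2 were lower (-1.0 and -0.66 in wild type) together with the protease Ctsb (-0.21). Between MommeD43 lines the receptors gave 3 higher and 2 lower, the partners 0 and 3, and the breakdown genes 1 and 3. Without weights the counts in B6GFP_WT were 0 higher and 1 lower for receptors (Itga2), and 0 and 0 for partners and for breakdown genes. Lamc1 was then at -0.12 (adjusted p = 0.865), Timp3 at -0.54 (adjusted p = 0.629), Ctsb at -0.13 (adjusted p = 0.546) and Mmp2 at 0.94 (adjusted p = 0.06). Without the 2 lines of lowest weight but with weights, Lamc1 (-0.32), Timp3 (-1.01), Timp2 (-0.64) and Ctsb (-0.22) passed.

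MommeD43 itself was not accompanied by a collagen change that passed the test. In FVB 0 of 32 members passed, where 0.0737% of all genes did, and in B6GFP 0 passed, where 0.0% did (limma, adjusted p). The average over strains called 0 members and 0.0335% of all genes, and the difference of the effect between strains called 0 members and 0.0% of genes. At an unadjusted p under 0.05 the counts of members were 5 in FVB (6.86% of all genes), 0 in B6GFP (2.14%), 0 in the average (4.62%) and 2 in the difference (3.08%). No other tool was run. Lines of the 2 genotypes did not overlap for 1 member in FVB, Col15a1, which is below 1 CPM (1.05% of all genes), and for 0 in B6GFP (1.23%).

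**Figure D3:**
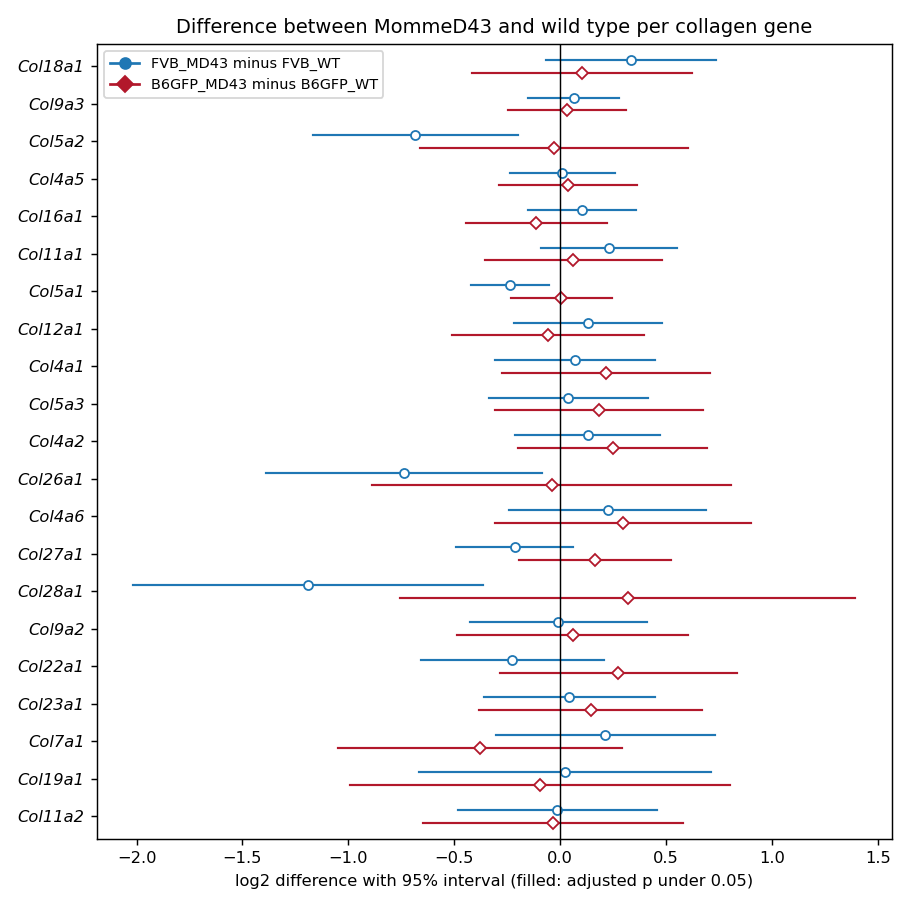
Fitted MommeD43 minus wild type difference of the 21 genes in FVB (circles) and in B6GFP (diamonds), on the log2 scale, with 95% intervals of the fit. All marks are open because 0 genes passed an adjusted p of 0.05, and Col28a1, Col5a2, Col26a1 and Col5a1 are the genes whose FVB interval does not include 0.

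The smallest p-values in FVB above 1 CPM were those of Col28a1, at -1.19 (95% interval -2.02 to -0.36, adjusted p = 0.411), and Col5a2, at -0.68 (-1.17 to -0.20, adjusted p = 0.427). Col5a2 was at 5.11, 5.90, 5.06 and 6.08 log2 CPM in FVB_MD43, inside the wild type range of 5.27 to 6.50 for 2 of the 4 lines. FVB_MD43 line 2, whose batch 1 library had the highest weight, changed these calls. Without it 5 members and 6.57% of all genes passed, the members being Col5a2 at -1.26 (adjusted p = 0.002), Col18a1 at 0.76 (adjusted p = 0.00395), Col5a1 at -0.30 (adjusted p = 0.0267), Col28a1 at -1.18 (adjusted p = 0.0497) and Col15a1. Over the other settings and left-out lines that used the same 22 columns without the replicate number, none of these passed in FVB.

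In B6GFP the smallest p-values belonged to Col1a1 and Col9a1, which are below 1 CPM, and to Col7a1, the chain of anchoring fibrils, at -0.38 (-1.05 to 0.29, adjusted p = 1). For the genes that separated the strains the differences there were 0.10 (-0.42 to 0.62) for Col18a1 and -0.06 (-0.51 to 0.40) for Col12a1. In the average over strains Col1a1, Col5a2 (-0.36, -0.75 to 0.04, adjusted p = 0.999) and Col15a1 had the smallest p-values. Col28a1 had opposite signs in the strains, -1.19 in FVB and 0.32 in B6GFP. The difference of 1.51 (0.15 to 2.86) had an adjusted p of 1, and of 0.046 with a size of 3.0 when B6GFP_MD43 line 1 was left out. The X-linked pair Col4a5 and Col4a6 had MommeD43 differences of 0.01 (-0.24 to 0.26) and 0.22 (-0.24 to 0.69) in FVB and of 0.04 (-0.29 to 0.36) and 0.30 (-0.31 to 0.90) in B6GFP. The lists for processing, receptors, basement membrane partners and breakdown had 0 genes past the threshold in each of these 4 comparisons.

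Collagen genes varied strongly between lines of one group. The SD over lines within groups, pooled over the 4 groups, had a median of 0.53 log2 over the 21 members, from 0.28 for Col5a1 to 0.97 for Col28a1, while the 13303 genes of the table with a group mean of 1 CPM or more had a median of 0.20. An SD above 0.5 was found for 15 of 21 members (71.4%) and for 11.1% of genes. In the single groups the medians were 0.39 in FVB_WT, 0.28 in FVB_MD43, 0.62 in B6GFP_WT and 0.53 in B6GFP_MD43, against 0.15, 0.12, 0.21 and 0.20 for all genes. SDs were larger among genes of low level, so each member was also set beside all genes of its own level. Of 19 members in windows of 1 log2 unit from 0 upward, 19 were above the median SD of their window and 12 were above its 90th percentile. Repeat libraries of one line differed by a median of 0.43 in the members and 0.18 over all genes, so spread was also present between libraries of the same line. A difference between libraries is not on the scale of an SD. Over all genes the fitted correlation between libraries of a line was 0.0827. How much of the spread lay between lines rather than between libraries was not tested.

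**Figure D4:**
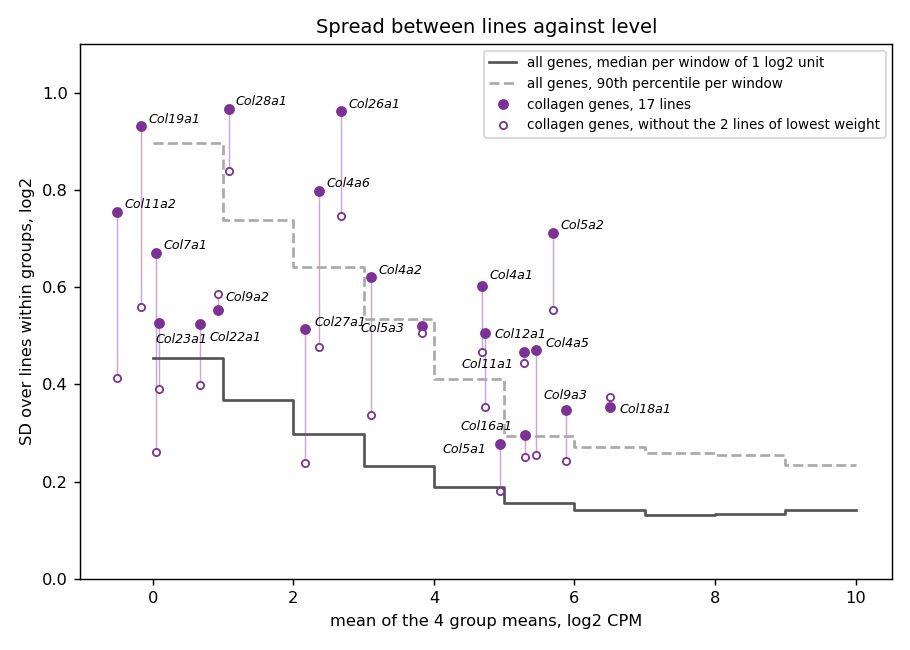
SD over lines within groups against mean level (log2 CPM) for the 21 collagen genes, with 17 lines (filled) and without the 2 lines of lowest weight (open). The solid and broken steps are the median and the 90th percentile of all genes in each window of 1 log2 unit, and Col5a2, Col4a1, Col26a1 and Col28a1 lie above the broken step with and without those lines.

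A few lines were often the farthest out. B6GFP_WT line 4 was the line farthest from its group mean for 10 of the 21 members, and for 34.4% of all genes. B6GFP_MD43 line 2 was farthest for 6 (19.8% of all genes) and B6GFP_MD43 line 4 for 2 (12.2%). Each of these lines rested on a single usable library, from batch 3, so a trait of the line and one of the library cannot be told apart. Line 4 of B6GFP_WT was high for Col12a1, Col5a2, Col4a5, Col4a6 (4.43 against 1.22 to 2.48) and Col26a1 (4.63 against 1.53 to 2.21). B6GFP_MD43 line 2 was high for Col4a1 (5.60 against 3.60 to 4.55), Col4a2 (4.83 against 2.19 to 3.0) and Col5a1 (5.79 against 4.90 to 5.20). Without these 2 lines the median SD was 0.40 in the members and 0.15 over all genes. Then 17 of the 19 members were above the median of their window and 12 above the 90th percentile.

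Chains preset because they assemble in one molecule or share a start region read in both directions were compared over the 17 lines. Each line's deviation from its group mean was used. Pairs were Col1a1 with Col1a2, Col4a1 with Col4a2, Col4a5 with Col4a6, Col5a1 with Col5a2, Col9a1 with Col9a3 and Col11a1 with Col11a2. Col5a3 and Col9a2, further type V and type IX chains above 1 CPM, were in no pair, and their relations were not tested. The p-values came from 100000 permutations of lines within groups and were adjusted over the 6 pairs. Col4a1 and Col4a2, the chains of the common type IV network, moved together (Pearson r = 0.877, permutation p = 1e-05, the smallest these permutations can give, adjusted p = 6e-05, and Spearman rho = 0.88, adjusted permutation p = 0.00018). Without the 2 lines farthest from the median of Col4a1 the value was r = 0.832, in FVB it was 0.893 over 9 lines and in B6GFP 0.921 over 8 lines, and within the batches it was 0.923, 0.884 and 0.941.

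Col4a5 and Col4a6 gave r = 0.878 (adjusted permutation p = 0.00934) and rho = 0.723 (adjusted p = 0.0112, permutation). Without the 2 farthest lines r fell to 0.632 (adjusted permutation p = 0.0357), and it was 0.583 in FVB and 0.92 in B6GFP, with 0.854, 0.609 and 0.916 within batches. Col5a1 and Col5a2 gave r = 0.656 (adjusted permutation p = 0.0164) and rho = 0.765 (adjusted p = 0.00558), and r = 0.794 without the 2 farthest lines. That pair was tighter in FVB (r = 0.928) than in B6GFP (0.536), a difference that was not tested, and its values within batches were 0.858, 0.931 and 0.676. Col9a1 and Col9a3 gave r = 0.465 (adjusted permutation p = 0.00934), with Col9a1 below 1 CPM. Col1a1 and Col1a2, both below 1 CPM, gave r = 0.714 (adjusted permutation p = 0.0164) but 0.486 (adjusted p = 0.143) without the 2 farthest lines and -0.01 in batch 1, so the relation did not hold there. Col11a1 and Col11a2 gave r = 0.293 (adjusted permutation p = 0.39) and rho = 0.407 (adjusted permutation p = 0.161), and r = -0.019 without the 2 lines of lowest weight.

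**Figure D5:**
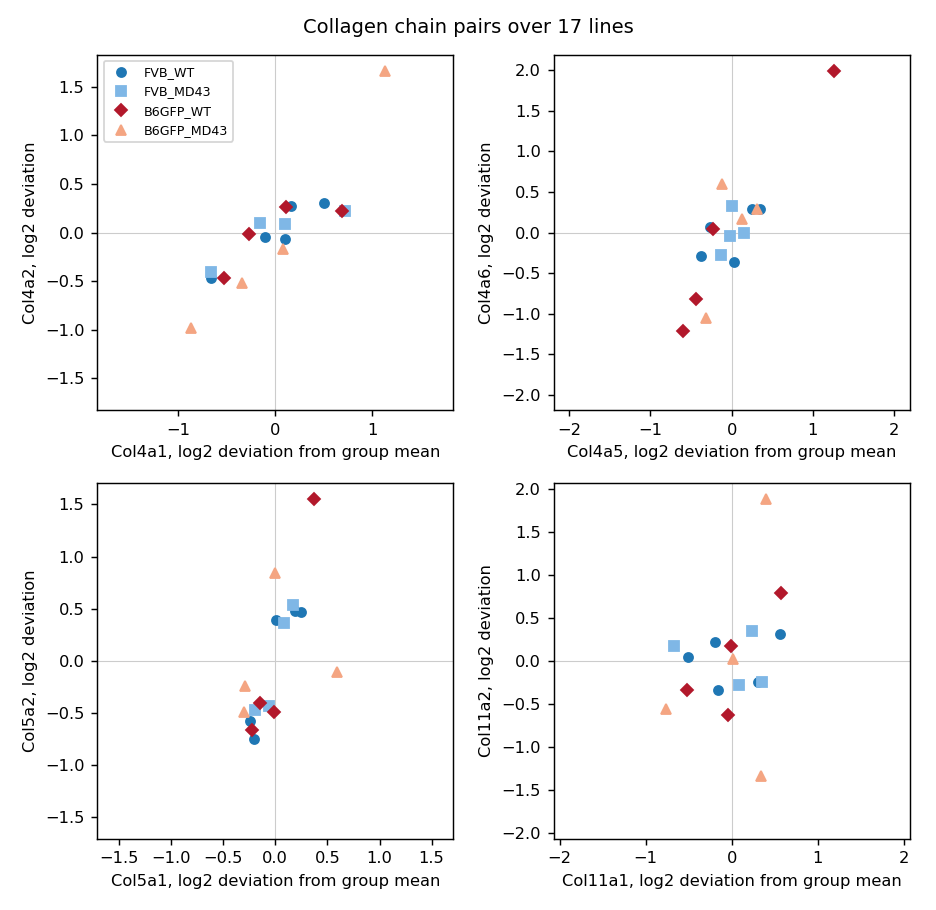
Deviation of each of 17 lines from its group mean for 4 chain pairs, in log2 units on both axes, coloured by group. Points follow the diagonal for Col4a1 with Col4a2 (r = 0.877) and Col4a5 with Col4a6 (r = 0.878), and scatter for Col11a1 with Col11a2 (r = 0.293).

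A high correlation was not particular to partner chains. Over all 210 pairs of the 21 members the median r was 0.231 (quartiles -0.243 and 0.606), and the highest value of all was between Col27a1 and Col4a5 (0.911), which do not share a molecule. Seen from Col4a1, Col4a2 ranked 113 among 14921 other genes by r, and Col4a1 ranked 93 for Col4a2. The ranks were 153 and 111 for Col4a5 and Col4a6, 1061 and 1029 for Col5a1 and Col5a2, and 5468 and 4899 for Col11a1 and Col11a2. The points of such correlations share libraries, so lines of low weight enter every pair.

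Both tight pairs lie head to head in the genome (RefSeq on GRCm38.p6). A shared start was among the grounds for presetting pairs, so this layout is not an independent finding. Col4a1 (chr8:11198423-11312889, minus strand) and Col4a2 (chr8:11312805-11449287, plus strand) share 85 bases at their starts and are read outward. Reads from such an overlap can be told apart only where the library keeps the strand, and the counting was not given in the sources used here. Col4a6 (chrX:141165403-141474095, minus strand) and Col4a5 (chrX:141475370-141689236, plus strand) leave 1274 bases between their starts, and so share no exon. The 32 members as a whole lie on 14 chromosomes.

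The start regions of Col4a6 and Col4a5 are shown because their RNAs varied together across lines while being read in opposite directions from one intergenic stretch. Each sequence is the part of the 250 bases before an annotated start that lies outside both genes, written 5′ to 3′ on the strand of its gene, and capitals mark a CCAAT box. The Col4a6 stretch is chrX:141474096-141474326 (minus strand) and the Col4a5 stretch is chrX:141475169-141475369 (plus strand), both GRCm38.p6.
Col4a6: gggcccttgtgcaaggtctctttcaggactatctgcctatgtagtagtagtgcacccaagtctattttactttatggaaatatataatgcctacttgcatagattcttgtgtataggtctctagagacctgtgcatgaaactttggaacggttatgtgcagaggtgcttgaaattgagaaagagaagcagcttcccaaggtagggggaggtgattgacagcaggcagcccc
Col4a5: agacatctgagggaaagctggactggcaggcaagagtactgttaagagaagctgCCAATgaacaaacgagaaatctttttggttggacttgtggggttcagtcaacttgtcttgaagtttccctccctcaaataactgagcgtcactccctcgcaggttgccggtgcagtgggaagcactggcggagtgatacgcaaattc

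Short motifs were searched on both strands of windows of 250 bases before the start, and matches could overlap. Of 25 members with a window, 16 held a GC box (GGGCGG), 11 a CCAAT box (CCAAT) and 2 a TATA box (TATAAA), where 32.9%, 34.5% and 13.0% of 27025 windows of all genes did. The whole Col4a5 window held a GC box and a CCAAT box and the Col4a6 window a GC box, of which only the CCAAT box falls in the stretch shown. A match of letters is a description and not a binding site.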

How the data were processed

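Poly(A) RNA (100 ng per library) was sequenced from female NSC lines, in 4 groups of 6 labelled libraries and 3 batches. Per the paper's methods, the authors trimmed reads with Trim Galore 0.4.4, aligned them with HISAT2 2.0.5 to GRCm38.p6, applied voom with quality weights in limma 3.40.6, and included corrections for strain, sex and batch, in a set with libraries not used here. The read counter, the annotation and the strandedness per library are not given in the sources used here. The deposited values are log2 CPM per gene. Because they are not counts, limma 3.58.1 (R 4.3.3) was fitted to all 14922 genes with group and batch as terms, array weights, line as a block (consensus correlation 0.0827) and a trended prior, and calls were made at a false discovery rate of 0.05, by the Benjamini-Hochberg procedure on the whole table. Fold changes are on the deposited log2 scale.

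Library totals cannot be read, so depth is known only relative to the deepest library. The steps between low values were whole reads for 3143 of 3143 values (tolerance 0.02). Lines with repeat libraries entered descriptions as their mean. Summaries and permutations were made in Python 3.11.15 with numpy 2.4.6, pandas 2.3.3 and scipy 1.17.1. The fitting code was tested on simulated data. Promoter windows and gene positions are from RefSeq on GRCm38.p6.

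The members and the gene lists were chosen with earlier results of these data known. Genes named with values are the 8 members of highest level, those with the smallest p in each comparison (10 in the strain comparisons and 3 in the MommeD43 comparisons), at most 4 genes per further list, and Smchd1. Further genes named in the text, among the cell type markers and the members that stand out in single lines, were chosen after their values were seen. Alternatives were a filter on low values, other centring, log2(CPM + 1), line means, no weights, no batch term, batch 1 alone, all 24 columns, the replicate number as a block, B6GFP lines of like cell line number as a block and leaving out each line. Runs without weights on log2(CPM + 1) or line means, and without the 2 lines of lowest weight, and the further lists without weights or those lines, were added after seeing the data.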

Additional observations from a re-analysis of the deposited data

Results flagged for a closer look

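Single lines stood far from the other lines of their group for 3 genes, out of 84 combinations of gene and group tested, where chance flags about 1 in 20, or 4.2 here. Col5a2 was at 7.48 log2 CPM in B6GFP_WT line 4, and at 5.26 to 5.52 in the other lines. Col22a1 was at 0.97 in B6GFP_MD43 line 2, and at 0.32 to 0.41 in the others. Col5a3 was at 5.91 in B6GFP_MD43 line 4, and at 3.87 to 4.18 in the others. The first 2 of these lines carried the lowest quality weights, and each of the 3 lines rested on a single usable library.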

How the results depend on the processing

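The counts of collagen genes that passed between strains depended on the quality weights. Between wild types 15 passed, against 3 without weights, 2 without weights on log2(CPM + 1), 5 on unweighted line means and 6 unweighted without the 2 lines of lowest weight. Between MommeD43 lines 10 passed, against 3, 3, 5 and 6. Leaving out 1 line gave 10 to 18 and 9 to 19, with 19 without B6GFP_MD43 line 3 (54.8% of all genes). With all 24 columns, which include the 2 that equal a mean of their group mates, the counts were 31 between MommeD43 lines (93.8% of all genes), 4 for MommeD43 in FVB (3.42%), 1 in B6GFP (3.22%) and 3 in the average (6.77%). Leaving out 1 line gave 0 to 5 in FVB (5 without FVB_MD43 line 2, with 6.57% of all genes), 0 to 0 in B6GFP, 0 to 0 in the average and 0 to 1 in the difference between strains (1 without B6GFP_MD43 line 1, Col28a1). The median SD over lines was 0.4977 to 0.5468 when 1 line was left out. The cause of these shifts was not tested.

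With the replicate number as a block, 1 member passed in FVB (Col15a1, with 0.918% of all genes). Same-numbered lines did not deviate together (correlations of -0.067, 0.138, -0.484 and -0.464 in FVB and of -0.316, 0.007, 0.131 and -0.355 in B6GFP). Whether such lines share an origin was not tested. Some B6GFP lines share the first part of a cell line number across genotypes, without the labels saying what it marks, and their correlations were 0.154, 0.472 and 0.131. The last of these belongs to B6GFP_WT line 3 and B6GFP_MD43 line 3, which also share a replicate number. With such lines as 1 block, 15 and 11 members passed between strains and 0 in each MommeD43 comparison. The relation of Col1a1 to Col1a2 gave r = 0.486 (adjusted permutation p = 0.143) without the 2 farthest lines and 0.601 (adjusted permutation p = 0.0588) without the 2 of lowest weight. Members that passed kept their sign in each setting run, while Col27a1, at 0.01 between MommeD43 lines, passed as lower (-0.14) with all 24 columns. Values near 0 that did not pass changed sign in places. Depth limits the 11 genes below 1 CPM, where single libraries held few reads or none.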
